A study of Arabidopsis thaliana with 9 samples.

Results

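Transcripts of 7 fast-responding stress transcription factors were followed in seedlings of Arabidopsis thaliana (Columbia-0) given a nitric oxide (NO) donor, given an NO scavenger, or left untreated. The 7 genes were picked by name, by a rule that uses no measured value, out of 22746 probe sets tested. Earlier results of these data were known when the genes were chosen. They are the WRKY factors WRKY40 (AT1G80840, ATH1.261892_at), WRKY18 (AT4G31800, ATH1.253485_at), WRKY33 (AT2G38470, ATH1.267028_at) and WRKY53 (AT4G23810, ATH1.254231_at). The others are the zinc finger proteins ZAT10 (AT1G27730, ATH1.261648_at) and ZAT12 (AT5G59820, ATH1.247655_at) and the ethylene response factor ERF5 (AT5G47230, ATH1.248799_at). The platform annotation table used here names 2 of these probe sets, WRKY53 and ZAT10 (under its RefSeq symbol STZ), and the other 5 pairings come from the list itself. Each gene is read by 1 probe set, given here as the array name ATH1, a dot and the probe set ID of the deposited table, and all 7 sets carry the plain suffix _at, which on this platform marks a set designed to match a single transcript.

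The 3 groups of 3 arrays were untreated seedlings (control), seedlings sealed in beside a dish of sodium nitroprusside (SNP, 100 uM), and seedlings whose own dish received 2 ml of 1 mM cPTIO. SNP gives off NO and cPTIO removes it. Treatment began at 3 days of age and lasted 5 days, and tissue was taken at 8 days. The series' design text calls the controls SDW without further explanation, and the labels do not tell if control dishes were sealed like the treated ones. The titles call the samples biological replicates. Each treatment had 3 receiver dishes in 1 sealed dish, and the labels do not say whether those are the 3 samples, so the p-values cover the spread among these samples only, part of which may be technical.

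WRKY proteins bind the W-box in promoters and act both in defence against pathogens and in senescence. WRKY18 and WRKY40 are close relatives that can pair with each other and restrain several defence and abscisic acid responses. ZAT10 and ZAT12 are small zinc finger proteins of the group that carries the EAR repression motif, and both are known from salt, cold, high light and oxidative stress. ERF5 is an AP2/ERF-type factor linked to chitin signalling and to leaf growth under osmotic stress. Messenger RNAs of this group are known for rising within minutes of a stimulus and decaying soon after, so levels after several days of exposure are levels of a late state.

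Values are log2 expression, on which a difference of 1 is a 2-fold difference. The array medians lay between 4.47 and 4.60 and no detection calls were used, so a group mean near or below these medians is not shown to lie above background. This applies to WRKY40 in control and on cPTIO replicates 1 and 2, to ZAT10 in control, to WRKY53 in SNP and cPTIO, and to ERF5 in every group, and no linear fold is given for them. One array stood apart from its group in limma's array weights, which are estimated around the group means over all probe sets. SNP and control arrays had weights of 0.765 to 1.84 and the other cPTIO arrays 0.644 and 1.71. The lowest weight, 0.296, was that of cPTIO replicate 3. Differences of the 7 members that rest on it are given with and without it. Every comparison against control also coincides with a difference in the BioC spike-in, a bacterial transcript added at hybridisation. The control arrays averaged 6.32 ± 0.18 for it (SD, n = 3), the SNP arrays 8.53 ± 0.09 and the cPTIO arrays 8.36 ± 0.51. The part of such processing differences in the results below was not tested.

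**Figure D1:**
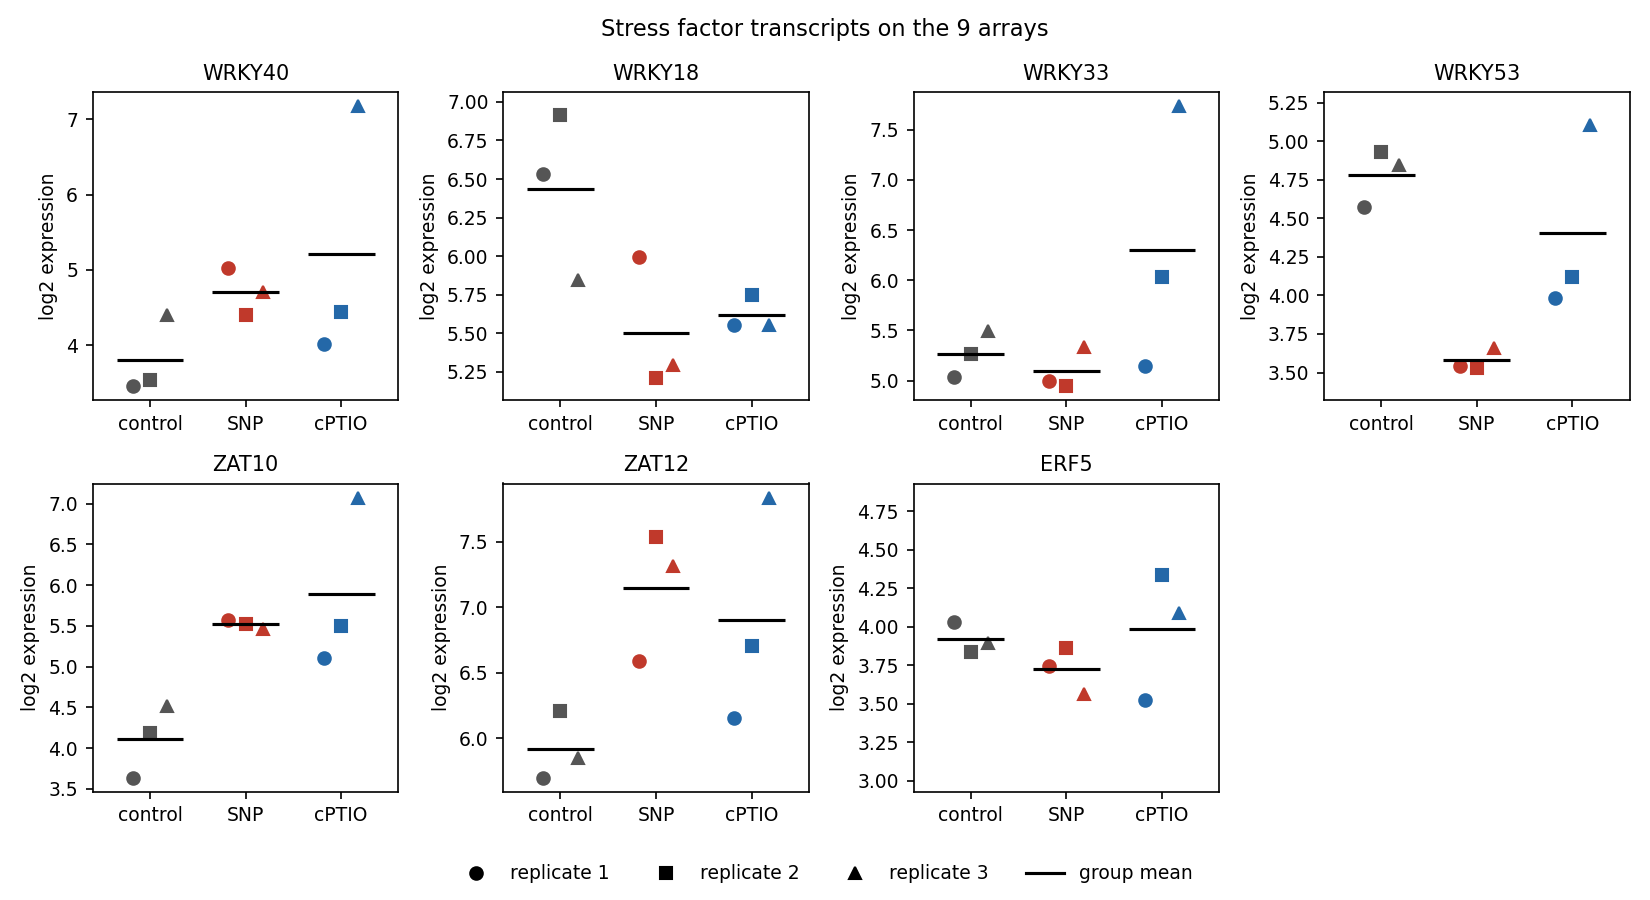
Log2 expression (y axis) of the 7 genes in control, SNP and cPTIO seedlings (x axis), 1 point per array, with marker shapes for the replicate number and a line at each group mean. WRKY53 in SNP (3.53 to 3.66) lies below every other array, ZAT10 is above all controls on all 6 treated arrays, and cPTIO replicate 3 is the highest cPTIO array for WRKY40, WRKY33, WRKY53, ZAT10 and ZAT12.

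In the SNP group WRKY53 was lower than in control. In the main fit, which gives all 9 arrays equal weight, it was the one member of the 7 that passed in any comparison. ZAT10 and ZAT12 lay about 1.2 to 1.4 log2 units higher in SNP and WRKY18 about 0.93 lower. None of these 3 differences passed in the main fit. With array weights all 3 passed (limma adjusted p = 0.0112 for ZAT10, 0.037 for ZAT12 and 0.0452 for WRKY18). With the poly-A spike-in level as a covariate none did. In cPTIO the difference nearest to the threshold in the main fit was that of ZAT10, at 1.78 above control. ERF5 differed from control by -0.20 in SNP and 0.06 in cPTIO. WRKY40 and WRKY33 were highest on 1 cPTIO array, and their differences from control did not pass.

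WRKY53, a regulator of leaf senescence and basal defence, gave 4.58, 4.93 and 4.85 on control replicates 1 to 3. It gave 3.54, 3.53 and 3.66 in SNP and 3.99, 4.12 and 5.11 in cPTIO. Every SNP array lay below every control array and below every cPTIO array, while the cPTIO arrays straddled the controls because replicate 3 was above all of them. The SNP minus control difference was -1.21 with an SE of 0.26 and a 95% confidence interval of -1.81 to -0.60 (limma adjusted p = 0.0356). The SNP mean of 3.58 ± 0.07 (SD, n = 3) was below all array medians, so the size of the decrease is uncertain. The call was lost when any single control or SNP array was left out, with limma adjusted p from 0.0661 to 0.133, and held when any cPTIO array was left out. It was also lost with the poly-A spike-in level as a covariate (-1.52, limma adjusted p = 0.0778). In cPTIO the difference from control was -0.38 (SE 0.26, limma adjusted p = 0.434). Without cPTIO replicate 3 it was -0.73 (SE 0.12), and limma's adjusted p was 0.015. Between SNP and cPTIO the difference of -0.83 (95% confidence interval -1.43 to -0.22) had a limma adjusted p of 0.144, and without cPTIO replicate 3 it was -0.48 (SE 0.12, limma adjusted p = 0.0639). The order of the group means was control, cPTIO, SNP from high to low, and neither neighbouring pair was separated by the test with all arrays.

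WRKY18, which restrains basal defence together with WRKY40, gave 6.53, 6.92 and 5.85 in control. The SNP arrays gave 5.996, 5.21 and 5.30, and the cPTIO arrays 5.55, 5.75 and 5.55. All cPTIO arrays were thus below all controls, whereas SNP replicate 1 was above control replicate 3. The difference from control was -0.93 (SE 0.29) in SNP and -0.82 (SE 0.29) in cPTIO, or 1.91-fold and 1.76-fold lower. The corresponding limma adjusted p-values were 0.101 and 0.129. SNP and cPTIO differed by -0.11, with a 95% confidence interval of -0.77 to 0.54, which does not show that they are alike. Control replicate 3 carried the lowest control value, and without it the SNP minus control difference was -1.22 (SE 0.24, limma adjusted p = 0.0434). WRKY18 was the one WRKY member whose cPTIO arrays were tightly grouped (SD 0.11 against 0.54 in control and 0.43 in SNP).

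WRKY40, the partner of WRKY18, behaved differently. Control arrays gave 3.46, 3.54 and 4.40, SNP arrays 5.03, 4.40 and 4.71, and cPTIO arrays 4.02, 4.44 and 7.17. Its lowest SNP array equalled its highest control array, and 2 of the 3 cPTIO arrays lay within or next to the control range. The difference from control was 0.91 (SE 0.73, limma adjusted p = 0.556) in SNP and 1.41 (SE 0.73, limma adjusted p = 0.287) in cPTIO. Without cPTIO replicate 3 the cPTIO difference shrank to 0.43 (SE 0.31, limma adjusted p = 0.426). The order of SNP and cPTIO turned as well: SNP minus cPTIO was -0.50 with all arrays and 0.49 without that array, with limma adjusted p-values of 0.785 and 0.419.

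WRKY33, which is needed for resistance to necrotrophic fungi and for camalexin synthesis, gave 5.03, 5.26 and 5.50 in control and 5.00, 4.95 and 5.34 in SNP. The cPTIO arrays gave 5.15, 6.03 and 7.73. SNP and control overlapped, and their difference was -0.17 with a 95% confidence interval of -1.42 to 1.07 (limma adjusted p = 0.913). The cPTIO minus control difference was 1.04 (SE 0.54, limma adjusted p = 0.293) and 0.32 (SE 0.26) without cPTIO replicate 3, where the limma adjusted p was 0.486. Of the cPTIO arrays, replicate 1 lay among the controls and replicates 2 and 3 above them. SNP minus cPTIO was -1.21 (SE 0.54, limma adjusted p = 0.287), and -0.49 (SE 0.26, limma adjusted p = 0.328) without that array.

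ZAT10, a repressor known from salt, cold and light stress, was the member with all treated arrays on one side of control. Control arrays gave 3.64, 4.18 and 4.52. SNP arrays gave 5.57, 5.53 and 5.47, an SD of 0.05, and cPTIO arrays gave 5.11, 5.50 and 7.08. All 6 treated arrays were above all 3 controls, which was also so for AT2G28200, described below. Over all probe sets, SNP arrays lay above all controls for 14.0% and cPTIO arrays for 13.0%. The share for both at once was not counted. The differences were 1.41 in SNP and 1.78 in cPTIO, each with an SE of 0.46. Their 95% confidence intervals ran from 0.36 to 2.45 and from 0.73 to 2.83, and limma's adjusted p was 0.118 and 0.0568, both above the threshold of 0.05. When cPTIO replicate 3 was left out the pooled spread narrowed and both differences passed. That of SNP was then 1.41 (SE 0.21, limma adjusted p = 0.00665) and that of cPTIO 1.19 (SE 0.24, limma adjusted p = 0.0238). Neither passed when any other single array was left out. The cPTIO difference also passed with median centring (limma adjusted p = 0.0469), a filter on dim probe sets (0.0299), an intensity trend (0.0368) or array weights (0.0242). It did not pass with these 2 groups alone (0.143). The SNP difference passed with these 2 groups alone (0.0113) or array weights (0.0112). It did not pass with median centring (0.094), the filter (0.068) or the trend (0.0799). With the poly-A spike-in level as a covariate the differences were 1.03 in SNP and 1.45 in cPTIO (limma adjusted p = 0.491 and 0.325). Both comparisons use the same 3 control arrays. Between SNP and cPTIO the difference was -0.37 (95% confidence interval -1.42 to 0.67) and turned to 0.22 without cPTIO replicate 3, passing the test in neither case.

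ZAT12, also named RHL41 for its response to high light, gave 5.70, 6.21 and 5.85 in control, 6.59, 7.54 and 7.32 in SNP, and 6.16, 6.71 and 7.84 in cPTIO. Every SNP array was above every control array, while cPTIO replicate 1 lay just below control replicate 2. The SNP difference was 1.23 (SE 0.41), or 2.34-fold, with a limma adjusted p of 0.129. It passed without cPTIO replicate 3 (SE 0.27, limma adjusted p = 0.0252), with its size the same since that array enters only the spread. It did not pass when any other single array was left out. It passed with SNP and control alone (limma adjusted p = 0.0319), with the replicate numbers added to that fit as a block (0.0147) and with array weights (0.037). It did not pass with median centring (0.104), a filter on dim probe sets (0.0774) or an intensity trend (0.0941). With the poly-A spike-in level as a covariate it was 0.72 (limma adjusted p = 0.583). The cPTIO difference was 0.98 (SE 0.41, limma adjusted p = 0.197), or 1.97-fold. Without cPTIO replicate 3 it was 0.51 (SE 0.30, limma adjusted p = 0.323). SNP minus cPTIO was 0.25, with a 95% confidence interval of -0.70 to 1.196, and 0.72 (SE 0.30, limma adjusted p = 0.215) without that array.

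ERF5 gave 4.03, 3.83 and 3.89 in control, 3.74, 3.86 and 3.56 in SNP, and 3.52, 4.34 and 4.09 in cPTIO. The 3 groups overlapped throughout. The 95% confidence interval of the difference from control was -0.64 to 0.25 in SNP and -0.38 to 0.51 in cPTIO, where the difference was 0.01 without replicate 3. All of its values lay below the array medians, where a change could be hidden by background.

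**Figure D2:**
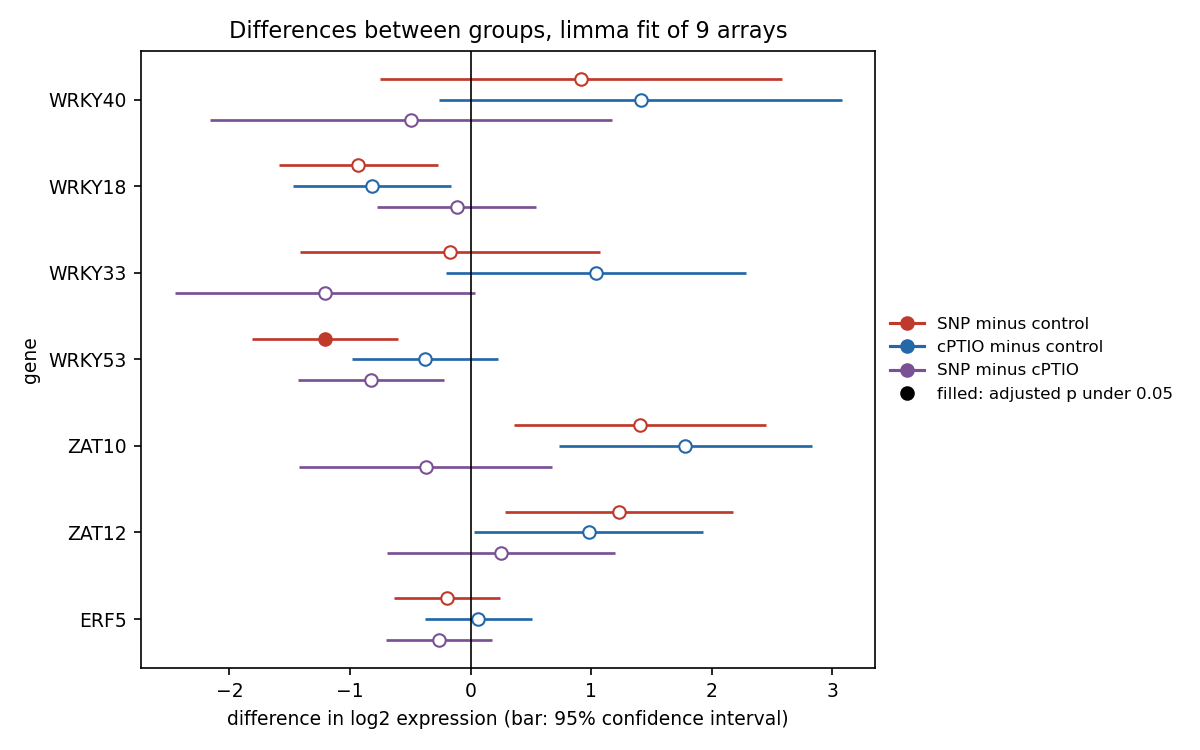
Difference in log2 expression (x axis) for each gene (y axis) in the 3 comparisons, from the limma fit of all 9 arrays; bars are 95% confidence intervals and a filled point marks an adjusted p under 0.05. The one filled point is WRKY53 in SNP minus control at -1.21, and the widest intervals are those of WRKY40.

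Counted together, SNP against control gave 0 members higher and 1 of 7 lower by limma, where 2.57% of all probe sets were called higher and 3.62% lower. At an unadjusted p under 0.05 the count was 4 of 7, against 20.8% of all probe sets. Treated and control arrays did not overlap for 2 members that were higher (ZAT10 and ZAT12) and 1 that was lower (WRKY53), against 14.0% and 15.9% of all probe sets. The median difference was -0.17 over the 7 members and 0.00 over all probe sets. cPTIO against control gave 0 of 7 calls by limma and 3 at an unadjusted p under 0.05 (23.8% of all probe sets), with 2.32% of all probe sets called higher and 4.27% lower. Its groups did not overlap for ZAT10 (higher, as in 13.0% of all probe sets) and WRKY18 (lower, as in 13.5%). The median was 0.98 over the members and 0.02 over all probe sets, and without cPTIO replicate 3 it was 0.32 and 0.03. SNP against cPTIO gave 0 of 7 calls by limma and 1 at an unadjusted p under 0.05 (WRKY53, against 18.2% of all probe sets), with 3.26% of all probe sets called. WRKY53 was also the member whose SNP and cPTIO arrays did not overlap, with SNP lower, as in 11.1% of all probe sets. By the moderated F-test WRKY53 alone differed among the 3 groups (limma adjusted p = 0.0492, just under the threshold), where 9.79% of all probe sets did.

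With cPTIO replicate 3 left out, 3 of the 7 were called in SNP against control. ZAT10 and ZAT12 were higher, with 4.85% of all probe sets called higher in that fit, and WRKY53 was lower, with 6.32% called lower. In cPTIO against control 2 of the 7 were called. They were ZAT10, higher, with 3.54% of all probe sets called higher, and WRKY53, lower, with 5.75% called lower. The number of members called thus changed with this 1 array, and it changed with others too. In SNP against control it fell to 0 without control replicate 1 or 2 or without any single SNP array. Without control replicate 3 the 1 member called was WRKY18 in place of WRKY53.

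**Figure D3:**
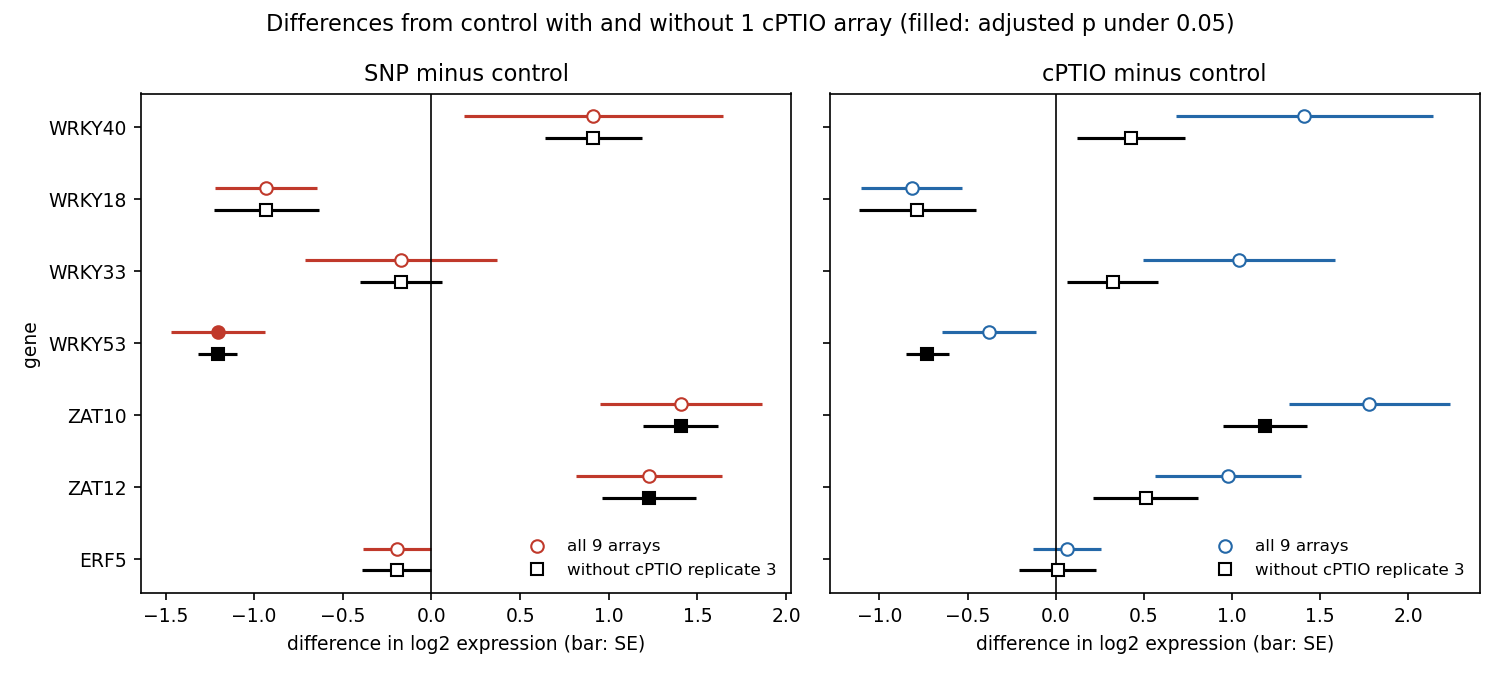
Difference from control in log2 expression (x axis, bar: SE) for each gene (y axis) under SNP (left) and cPTIO (right), with all 9 arrays (circles) and without cPTIO replicate 3 (squares); filled symbols have an adjusted p under 0.05. ZAT10 passes in both panels without that array, ZAT12 passes under SNP alone, and WRKY40 and WRKY33 move toward 0 under cPTIO.

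cPTIO replicate 3 showed a pattern of its own among these factors. Relative to the mean of cPTIO replicates 1 and 2 it was higher by 2.95 for WRKY40, 2.15 for WRKY33, 1.77 for ZAT10, 1.41 for ZAT12 and 1.05 for WRKY53. WRKY18 (-0.10) and ERF5 (0.16) did not share this. Of the 15 further genes read below, WRKY6 (1.78), PUB24 (1.29) and CML38 (1.03) were also more than 1 higher on that array. AT5G07580 (-1.35) was more than 1 lower, and the rest differed by less than 1. Over all probe sets 3.68% were more than 1 higher on that array and 2.63% more than 1 lower, against 5 of the 7 members higher. For WRKY40, WRKY53 and PUB24 the other cPTIO arrays lay below the array medians, so the size of their difference is uncertain. This compares 1 array with 2 others and has no replicate check. The within-group SD was widest in cPTIO for 6 of the 7 members, with a median of 0.86 against 0.21 in SNP and 0.26 in control. Over all probe sets cPTIO was the widest group for 50.8%. The mean level of the poly-A spike-ins, transcripts added to the RNA before labelling, was 4.60 on that array, 4.46 and 3.85 on the other cPTIO arrays, and 3.71 to 3.90 in control. SNP arrays gave 4.00, 4.34 and 4.76, so SNP replicate 3 had a higher spike-in level than cPTIO replicate 3. Its part in the pattern was not tested.

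Among themselves the members fell into more than one pattern over the 9 arrays. These are correlations across arrays that share groups and a common normalisation, and are descriptions only. ZAT10 tracked WRKY40 (Pearson r = 0.91, and 0.85 over the 8 arrays without cPTIO replicate 3) and ZAT12 (r = 0.86, and 0.79 over 8 arrays). WRKY40 and WRKY33 gave r = 0.84 over 9 arrays but 0.12 over 8. WRKY18 ran against ZAT10 (r = -0.68, and -0.78 over 8 arrays), and its r with its partner WRKY40 was -0.48, or -0.66 over 8 arrays. WRKY53 showed little relation to ZAT10 over 9 arrays (r = -0.13) and ran against it over 8 (r = -0.84).

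The mean profile of the 7 members, each centred on its own mean, was led by cPTIO replicate 3 at 1.23, with the other 8 arrays between -0.42 and 0.13. The 10 genes most like it, of 1209 eligible probe sets, had Pearson r from 0.93 to 0.96 over 9 arrays. All 10 were highest on that array, but the search favoured such genes because the profile itself peaks there. The SD needed to be eligible can also be reached through that array alone, so the peak is no separate result. Without that array r ran from -0.50 to 0.65. Most of the 10 carry a locus number as their only name, such as AT2G15830 (r = 0.96). Among those with a gene name were IVD, an enzyme of leucine breakdown (8.97 on cPTIO replicate 3 and 5.93 to 6.11 elsewhere), and TET8, a tetraspanin (10.20 against 8.25 to 8.77).

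Other genes of the same families and of the early stress response were read from lists of 83 genes (upstream kinases, partners, targets, relatives and other rapid response genes). These lists too were made with earlier results of these data known. The annotation table paired 10 of the 83 genes with a probe set, and the others were not analysed here. With the other WRKY genes it names, 15 genes were read. In SNP against control 3 of the 15 were lower and 0 higher by limma, where 3.62% and 2.57% of all probe sets were. At an unadjusted p under 0.05 there were 7 of 15, against 20.8% of all probe sets. In cPTIO against control 0 of 15 passed by limma, where 4.27% of all probe sets were lower and 2.32% higher. At an unadjusted p under 0.05 there was 1, against 23.8% of all probe sets. In SNP against cPTIO 2 were lower by limma, where 1.59% of all probe sets were, and 0 higher, where 381 of 22746 were. At an unadjusted p under 0.05 PUB22, PUB23, WRKY22, CML38, AT5G61590 and WRKY47 were lower. Over all probe sets 18.2% had such a p in either direction. The median difference over the 15 was -0.08, -0.02 and -0.42 in these comparisons.

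PUB22 and PUB23, U-box ubiquitin ligases that dampen immune signalling, fell in SNP. PUB22 gave 5.21, 5.71 and 5.18 in control, 4.35, 4.35 and 4.31 in SNP, and 4.94, 5.20 and 5.53 in cPTIO. Its SNP arrays lay below all others, and the SNP minus control difference was -1.03 (SE 0.18, limma adjusted p = 0.0159). The SNP mean, 4.34, was below the array medians. Leaving out SNP replicate 1 or SNP replicate 2 ended the call (limma adjusted p up to 0.0631), as did the poly-A level as a covariate (0.0857). PUB23 gave 5.84, 6.06 and 6.34 in control, 5.04, 4.60 and 4.98 in SNP, and 5.79, 5.98 and 6.75 in cPTIO. The SNP arrays were again lowest, with a difference from control of -1.20 (SE 0.25, limma adjusted p = 0.031), which was lost without any single control or SNP array (limma adjusted p up to 0.118) and with the poly-A level (0.108). Against cPTIO the SNP differences were -0.88 for PUB22 and -1.30 for PUB23, with limma adjusted p of 0.0394 and 0.0341. Both calls were lost in a fit of these 2 groups alone, with limma adjusted p of 0.0699 and 0.0993. Adding the replicate numbers as a block to that fit gave 0.0794 and 0.0778. The PUB22 call was lost without the arrays numbered 3 (0.0787). The calls were also lost for both genes without SNP replicate 1, 2 or 3 or without control replicate 3 or cPTIO replicate 2, for PUB22 without control replicate 1, and for PUB23 without control replicate 2. The third relative, PUB24, lay at 3.32 to 3.48 on 8 arrays and at 4.67 on cPTIO replicate 3.

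**Figure D4:**
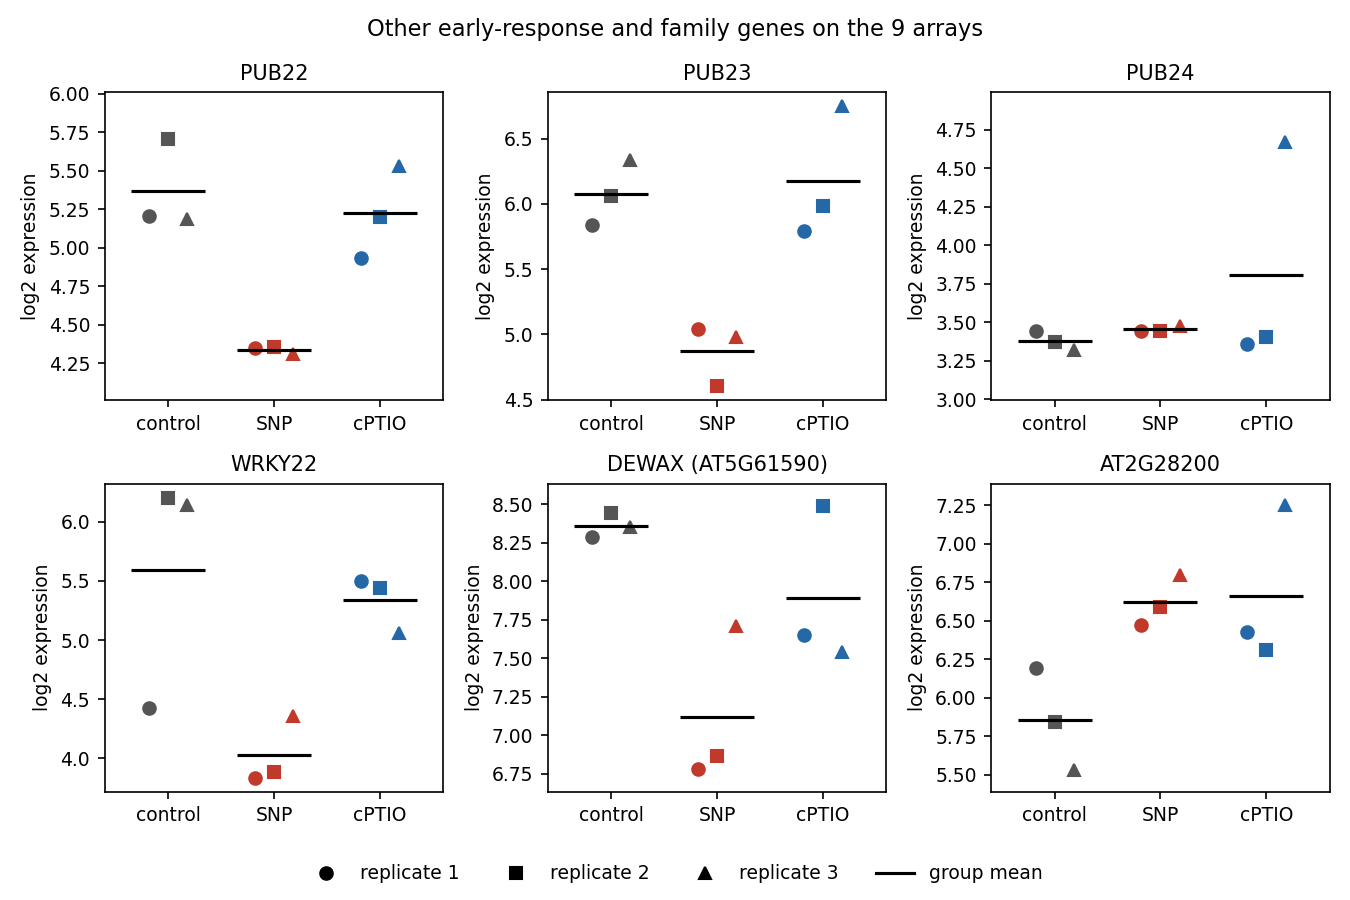
Log2 expression (y axis) of 6 further genes in the 3 groups (x axis), 1 point per array, with marker shapes for the replicate number and a line at each group mean. PUB22 and PUB23 are lowest on all 3 SNP arrays, and PUB24 stands out at 4.67 on cPTIO replicate 3 alone.

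DEWAX (AT5G61590), an ERF-type repressor of cuticular wax genes, gave 8.29, 8.44 and 8.35 in control, 6.78, 6.86 and 7.71 in SNP, and 7.65, 8.49 and 7.54 in cPTIO. Every SNP array was below every control. The difference from control was -1.24 (SE 0.30), or 2.37-fold lower, and its limma adjusted p of 0.0485 lay just under the threshold. The call was lost without any single control array, without SNP replicate 1 or 2 and without cPTIO replicate 1 (limma adjusted p up to 0.165). It was lost as well with median centring (0.0511) and with the poly-A level (0.226). WRKY22, an early defence factor, had means of 5.59 ± 1.01 (control, SD, n = 3), 4.02 ± 0.29 (SNP) and 5.34 ± 0.24 (cPTIO). Its SNP arrays lay below all other arrays, but the difference from control of -1.57 had a limma adjusted p of 0.0737. All SNP arrays and control replicate 1 (4.43) were below the array medians, so the size of this difference is uncertain. AT2G28200, listed as a relative of the ZAT genes, had a control mean of 5.86 ± 0.33, an SNP mean of 6.62 ± 0.17 and a cPTIO mean of 6.66 ± 0.51. No treated array was as low as a control, with limma adjusted p of 0.132 and 0.105. Without cPTIO replicate 3 the SNP difference of 0.77 passed (limma adjusted p = 0.0265), and the cPTIO difference did not (0.129). The other WRKY genes named by the table were WRKY6, WRKY20, WRKY42, WRKY47 and ZAP1 (WRKY1), and none passed in any comparison by limma, while WRKY47 had an unadjusted p under 0.05 in both SNP comparisons (0.0436 against control and 0.049 against cPTIO). AT5G07580 from the ERF list was lower on every SNP array than on every control. The difference was -1.23 (SE 0.37, limma adjusted p = 0.0961), and it passed without cPTIO replicate 3 (0.012). The ERF target PDF1.2, the touch gene CML38 and AT3G53600 from the ZAT list passed in no comparison, with or without that array.

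Of the markers prepared to check the tissue, 2 of 4 root genes were named by the table, and none of the 5 shoot, 3 flower and 3 seed genes, so the shoot share of the seedlings was not analysed here. PYK10, an abundant root and hypocotyl glucosidase, was 11.89 to 12.33 on all arrays. EXPA7, a root hair expansin, had a control mean of 6.10 ± 0.07, an SNP mean of 5.12 ± 0.40 and a cPTIO mean of 5.61 ± 0.10. It fell in SNP by 0.98 (SE 0.18, limma adjusted p = 0.0192), a call lost without any single control array (limma adjusted p up to 0.0634) and with the poly-A level (0.16). It thus moved in the same comparison as WRKY53, PUB22, PUB23 and DEWAX, and its part in their differences was not tested. In whole seedlings fewer cells of a type and less RNA per cell cannot be told apart.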

How the data were processed

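RNA from whole seedlings was hybridised to 9 Affymetrix arrays. The values deposited by the authors are log2 expression levels, already normalised. The tools listed in the submitters' processing notes are RMA and limma, without versions. Because RMA forces the arrays to a common distribution, shifts affecting the majority of genes are mostly lost. Of 22810 probe sets, 64 control sets were set aside and 22746 were tested with no filter. limma 3.58.1 in R 4.3.3 modelled the 3 groups jointly on the 9 arrays, with no other term, in two-sided tests with Benjamini-Hochberg adjustment over all probe sets within each comparison and a threshold of 0.05. SDs are over 3 arrays, which limits the precision. The scripts were tested on simulated data. Figures used Python 3.11.15 and matplotlib 3.10.9.

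Genes were named through the platform annotation (13513 probe sets with 1 gene, 503 with several, 8730 not listed), with symbols from RefSeq. The members and gene lists were chosen with earlier results of these data known. Named genes are the 7 members, list genes called in a comparison, relatives of members, and the 10 probe sets (1 gene, SD of at least 0.5) with the highest Pearson r with the members' mean profile. The correlations over 8 arrays were added after seeing the data.

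Replicate numbers were checked for pairing by correlating deviations from group means. Between SNP and cPTIO these gave 0.257, 0.305 and 0.417, all above the limit of 0.1 set for pairing. This sign of pairing rests on the data, not the labels. The main SNP minus cPTIO values ignore it, since they come from the joint fit with no replicate term. The replicate block was fitted only as an alternative. Against control they ran from -0.0174 to 0.127 and from -0.00711 to 0.0621, and those arrays were taken as unpaired. Alternatives were 2 groups alone with and without that block, median centring, a filter on dim probe sets, array weights, an intensity trend, the poly-A spike-in mean as a covariate, and leaving out arrays.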

Additional observations from a re-analysis of the deposited data

Results flagged for a closer look

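Among control probe sets, which are outside the tested ones, 2 transcripts lay above all 3 controls on all 6 treated arrays. The BioC hybridisation spike-in did so by a mean of 2.12 log2 units, and plant ubiquitin by 0.343. No other control transcript did so. Both transcripts divide the arrays along the line of the comparisons against control, as ZAT10 does, and no explanation was tested. Over all tested probe sets, SNP arrays lay above all controls for 14.0% and cPTIO arrays for 13.0%. The share for both at once was not counted.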

How the results depend on the processing

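Of 351 values of the 7 members under the alternatives, 316 kept their direction and their side of the threshold, 19 gained a call, 7 lost one (all of them WRKY53 in SNP against control) and 9 changed sign. Of 102 values of the called list genes, 63 kept their call and 39 lost it. The cause of these shifts was not tested. Each list below runs over SNP against control, cPTIO against control and SNP against cPTIO.

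Members called (1, 0 and 0 in the main fit) numbered 0 to 3, 0 to 2 and 0 to 0 when single arrays were left out. Centring each array on its median gave 1 (ZAT10) in cPTIO. Leaving out the dimmer probe sets, among them WRKY53, gave 0 in SNP and 1 in cPTIO. SNP against control gave 3 with these 2 groups alone and 3 with the replicate block. Array weights gave 4 and 1, an intensity trend gave 1 in cPTIO, omission of the SNP and cPTIO arrays numbered 3 gave 2 and 2, and adding the poly-A level as a covariate gave 0 in SNP (adjusted p of WRKY53 0.0778). By the F-test the count of 1 ran from 0 to 3 without single arrays. It was 0 with centring or the poly-A level, and 2 with array weights, an intensity trend or omission of arrays numbered 3.

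Probe sets called numbered 1409, 1498 and 742. Without single arrays they ran from 500 to 2542, 122 to 2114 and 161 to 1313. They were 2440, 280 and 267 with 2 groups alone, 3560, 2260 and 1652 with array weights, and 2256, 2330 and 1392 without the arrays numbered 3. With the poly-A level they were 260 and 26 in the comparisons against control. With the replicate block, cPTIO against control gave 0 (limma, 4510 at an unadjusted p under 0.05) and SNP against cPTIO 282. By the F-test 2227 differed, from 744 to 3545 without single arrays, with 4389 under array weights, 3602 without arrays numbered 3 and 802 with the poly-A level. Between SNP and cPTIO the block changed no call of the 7 members, PUB22 or PUB23 against the fit of these 2 groups alone, in which the PUB22 and PUB23 calls were already lost.

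Signs changed for differences that were not called. SNP minus cPTIO for WRKY40 became 0.055 with array weights, 0.49 without arrays numbered 3, and ran from -1.09 to 0.49 without single arrays. For ZAT10 it became 0.24 without arrays numbered 3 and ran from -0.77 to 0.22. The range was -0.12 to 0.72 for ZAT12 and -0.36 to 0.030 for WRKY18. ERF5 became 0.073 in SNP minus control with the poly-A level and ran from -0.11 to 0.29 in cPTIO minus control. The planned promoter motif comparison was not run, since no promoter sequence was used here. With 3 arrays a group and several members near the array medians, small differences were not detectable.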
